A study of Homo sapiens with 9 samples.

Results

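The long noncoding RNA genes expressed in MiaPaCa2 cells were followed through exposure to stellate cell supernatant. A gene belonged to the set when its single annotated symbol began with LINC and digits or ended in -AS1, -AS2, -IT1 or -DT, and when its brightest probe set had a mean log2 expression of at least 5 over the 9 arrays. By that rule 489 genes were members, of 1822 genes with such a name and of 12402 genes of any kind above the same mean. The mean level over all arrays thus chose the members, and no difference between arrays entered the rule. For genes near the minimum, though, a single high array could decide membership. Without the control array the mean of TAPT1-AS1 would be below 5, as would that of LINC01842 without the 24 h array. The directions given below for these genes are those that the minimum favours. Just inside the threshold lay LINC01842 (5.00), GATD1-DT (5.00) and TAPT1-AS1 (5.00), and just outside it CEP83-DT, MCPH1-DT and DOCK9-DT, with means from 4.99 to 5.00. By Entrez ID 485 of the 489 members matched a RefSeq long noncoding RNA gene, and ERICH1-AS1, LINC01296, TNRC6C-AS1 and UBXN10-AS1 had no match.

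Long noncoding RNAs are transcripts without a long reading frame, most of them capped and spliced like messenger RNA. LINC genes lie between protein-coding genes, -AS genes run on the strand opposite a coding gene, -IT genes lie in its introns, and -DT genes start near its promoter and run away from it. Many divergent and antisense transcripts are short-lived in the nucleus, where the RNA exosome and its adaptors degrade them.

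MiaPaCa2 is an established human pancreatic carcinoma line. Its cells had received culture supernatant of pancreatic stellate cells, the fibroblast-like cells of the pancreatic stroma, which the labels call naive. Exposed cells were harvested after 1, 2, 3, 4, 5, 6, 7 and 24 h, and 1 control array is labelled 24 h. Each of these 9 groups held 1 Affymetrix array of total RNA, so that no value had replicates. Although labelled a control, this array has a title that names the same treatment, and the labels do not say what its cells were given. They leave the order of the harvests unstated too, so hours of exposure and time in culture cannot be told apart. Values are log2 expression. Errors are standard errors (SE) of a limma fit across all 12402 genes whose spread is how far the 7 hourly arrays fell from a straight line in time. The same spread was taken for the 24 h and control arrays, which have none of their own. In a whole-cell RNA extract, fewer cells that express a gene and less RNA per cell cannot be told apart.

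The 5 h array and the control array stood apart from the other 7. Their median correlation with the remaining arrays was 0.991 and 0.990, against 0.996 or more for the others. The 5 h array also had the largest hourly scatter about the fitted lines, with an SD of 0.165 against 0.0786 to 0.102. Of 5 measured markers of the carcinoma line none passed the test against the control: KRT18 was at 13.39 in the control and 13.45 on average over 1 to 7 h, and VIM at 13.84 and 13.96, while EPCAM and CDH1 lay below 5. Of 7 measured stellate cell and fibroblast markers 3 were higher in the exposed arrays, COL3A1 by 0.94 ± 0.11, COL1A2 by 0.68 ± 0.13 and RGS5 by 0.34 ± 0.07, and the list's mean level was 7.74 to 7.96 in the exposed arrays and 7.56 in the control. The other 4 did not pass: DCN differed by 0.41 ± 0.13, COL1A1 by 0.09 ± 0.13, THY1 by 0.05 ± 0.12 and ACTA2 by -0.40 ± 0.18. LUM, PDGFRB and FAP lay below 5. The leukocyte list had 1 of 3 measured members higher (LYZ, by 2.38 ± 0.11) and the endothelial list 2 of 3 (TEK, by 0.45 ± 0.10, and EMCN, by 0.38 ± 0.09). CD14 (0.48 ± 0.29), CD74 (0.11 ± 0.11) and PECAM1 (0.08 ± 0.20) did not pass, and PTPRC and CDH5 lay below 5. Against the control 5.85% of all 12402 genes passed as higher and 8.02% as lower. The part of these markers in the differences below was not tested.

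The members were spread over all 4 name classes, with 157 of 840 LINC genes, 249 of 760 -AS genes, 7 of 25 -IT genes and 76 of 197 -DT genes above the minimum. They were mostly dim: 269 had a mean of 5 to 6, 194 of 6 to 8, and 26 of at least 8. In every array 406 of them stayed at 5 or more, and 36 were under 5 in the control. In 270 members (55.2%) at least 2 of the 9 arrays held the same value to 6 decimals, against 39.6% of all genes, and in 124 (25.4%) at least 3 did, against 14.6%. LINC00824, for example, was at 5.30 at 1, 2, 3 and 7 h.

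The first comparison asked which long noncoding RNA genes differed between the 7 hourly exposed arrays and the control. PARD6G-AS1, LINC01004, TAPT1-AS1, PAN3-AS1, LINC00115 and PAX8-AS1 were lower in the exposed cells by more than 2-fold, and LINC02504 and LINC01844 higher. In limma's test 27 of 489 members passed an adjusted p of 0.05 as higher and 32 as lower, and 430 did not pass. That was 12.1% of the members, where 13.9% of all 12402 genes passed in either direction, 5.85% as higher and 8.02% as lower. At an unadjusted p of 0.05 there were 140 members, where 30.2% of all genes passed. The median difference was 0.01 over the members and -0.01 over all genes. The members' share of calls of any size was therefore near the background, and the differences lay in particular genes. Calls of at least 2-fold numbered 6 lower and 2 higher among the 489 members. Among all 12402 genes they numbered 45 and 33, a smaller share in both directions.

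PARD6G-AS1, antisense to the gene of a cell polarity adaptor on chromosome 18, was at 8.50 in the control. In the 8 exposed arrays it ran from 6.60 (6 h) through a median of 6.81 to 6.86 (24 h). Every exposed array thus lay far below the control and close to the others. The difference was -1.73 ± 0.10 (3.33-fold lower, adjusted p = 0.000149), and PARD6G-AS1 was the 1 member at least 2-fold below the control in all 8 exposed arrays, where 0.137% of all genes were. No member was at least 2-fold above it in all 8, against 0.0968% of all genes. A dimmer probe set of the same gene, also with a mean above 5, differed by only -0.11, so the size rests on the brighter one, and the average over all its probe sets was -0.92.

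LINC01004, on chromosome 7, was at 6.90 in the control, and at 5.08, 5.52 and 5.98 as the lowest, median and highest of the exposed arrays. Its difference was -1.37 ± 0.24 (adjusted p = 0.00907). Averaged over all its probe sets it was -0.36 and did not pass (adjusted p = 0.0815). TAPT1-AS1, on chromosome 4, was at 6.15 in the control and at 5.50 at 5 h, with the other exposed arrays between 4.40 and 5.20. Its 5 h value was thus the nearest to the control, and the difference of -1.34 ± 0.31 (adjusted p = 0.0252) did not pass without the 3 h array (adjusted p = 0.0510) or, narrowly, without the 4 h array. LINC00115 was at 6.36 in the control and between 4.96 and 5.66 in the exposed arrays, a difference of -1.12 ± 0.14 (adjusted p = 0.00217).

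PAN3-AS1 lies antisense to PAN3, whose protein belongs to a deadenylase that shortens poly(A) tails. It was at 6.63 in the control, between 5.03 and 5.67 in the hourly arrays and at 6.38 at 24 h. Low values were thus those of the first 7 h, and the 24 h array lay near the control. The difference over 1 to 7 h was -1.16 ± 0.17 (adjusted p = 0.00444). PAX8-AS1, beside the gene of a paired-box transcription factor, had a like course: 7.10 in the control, 5.71 to 6.26 over 1 to 7 h and 6.58 at 24 h. It differed by -1.08 ± 0.14 (adjusted p = 0.00300), and its second bright probe set by -0.30. Averaged over all its probe sets the difference was -0.52.

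The other named genes that fell were LINC00513 (-0.95 ± 0.11), DPH5-DT (-0.91 ± 0.14), HMMR-AS1 (-0.89 ± 0.21) and SDCBP2-AS1 (-0.88 ± 0.23, adjusted p = 0.0396). The exposed arrays of LINC00513 lay within 5.63 to 5.93, below a control of 6.76. Averaged over all probe sets of the gene the difference was -0.44 for LINC00513 and -0.48 for DPH5-DT, and both passed (adjusted p = 0.0204 and 0.00705). DPH5-DT, whose second bright probe set also differed downward (-0.63), was at 6.50 to 7.11 in the exposed arrays against 7.63 in the control. SDCBP2-AS1 had the least firm call of the named genes. It did not pass without the 1 h, 2 h, 3 h or 6 h array (adjusted p from 0.0639 to 0.0726), and its bright probe sets ran from -0.88 to 0.05. The call was also lost with the mean over probe sets, without a time term, after another quantile normalization and in the authors' filtered table. Over 16 alternatives, 8 of which lost the call, its difference ran from -0.95 to -0.28. The remaining 22 lower members had differences from -0.84 (NINJ2-AS1) to -0.31 (TBX2-AS1).

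Among the genes that rose, LINC02504 on chromosome 4 was at 5.18 in the control and at 6.05 (24 h), 6.18 and 6.38 (7 h) as the lowest, median and highest exposed values. The difference was 1.05 ± 0.07 (2.07-fold, adjusted p = 0.000285). LINC01844 on chromosome 5 rose by 1.02 ± 0.16 (2.03-fold, adjusted p = 0.00582), from 4.26 in the control to between 4.82 (7 h) and 5.58 (1 h). Neither gene's exposed arrays overlapped the control, but the control level of LINC01844 lay below the minimum of 5. That was so for 7 of the 27 members that rose.

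CTBP1-DT starts beside CTBP1, a gene of a transcriptional corepressor. It was at 6.02 in the control and between 6.68 (5 h) and 7.23 (7 h) in the exposed arrays, higher by 0.95 ± 0.16 (adjusted p = 0.00755). Another probe set, the one the authors' filtered table holds for the gene, differed by -0.07 (adjusted p = 0.799), so the rise rests on 1 probe set. ALMS1-IT1, from an intron of the centrosomal gene ALMS1, rose by 0.80 ± 0.15 (adjusted p = 0.0109). It was at 6.82 in the control, 7.32 to 7.76 in the hourly arrays and 7.05 at 24 h. The 24 h array thus lay between the hourly arrays and the control.

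The other named genes that rose were RAB11B-AS1 (0.59 ± 0.10), EPB41L4A-AS1 (0.58 ± 0.13), ACVR2B-AS1 (0.57 ± 0.15), CSMD2-AS1 (0.56 ± 0.07), LINC00165 (0.56 ± 0.09) and IKBKB-DT (0.55 ± 0.15). CSMD2-AS1 had tight exposed values, 5.40 to 5.57, above a control of 4.89. EPB41L4A-AS1 was at 8.88 in the control and 9.20 (5 h) to 9.66 (1 h) in the exposed arrays, but a second bright probe set differed by 0.02. The call of ACVR2B-AS1 was lost without the 3 h, 4 h or 7 h array (adjusted p from 0.0523 to 0.0597), and that of IKBKB-DT without the 2 h, 3 h, 4 h or 7 h array (adjusted p from 0.0571 to 0.0699). LINC02504, CTBP1-DT and ACVR2B-AS1 were read by probe sets with the suffix _x_at, which Affymetrix gives where probes can match other transcripts, as were 33 members in all. Averaged over its probe sets EPB41L4A-AS1 did not pass (0.30, adjusted p = 0.0551), and RAB11B-AS1 passed with a smaller rise (0.37). LINC00165 did not pass without a time term (adjusted p = 0.0616). In a fit of the authors' filtered table RAB11B-AS1 (adjusted p = 0.0889), LINC00165 (0.0998) and HMMR-AS1 (0.0502) kept their values and did not pass. SDCBP2-AS1 did not pass there either. The remaining 17 members that rose did so by 0.24 (ERICH1-AS1) to 0.52 (CRIM1-DT).

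**Figure D1:**
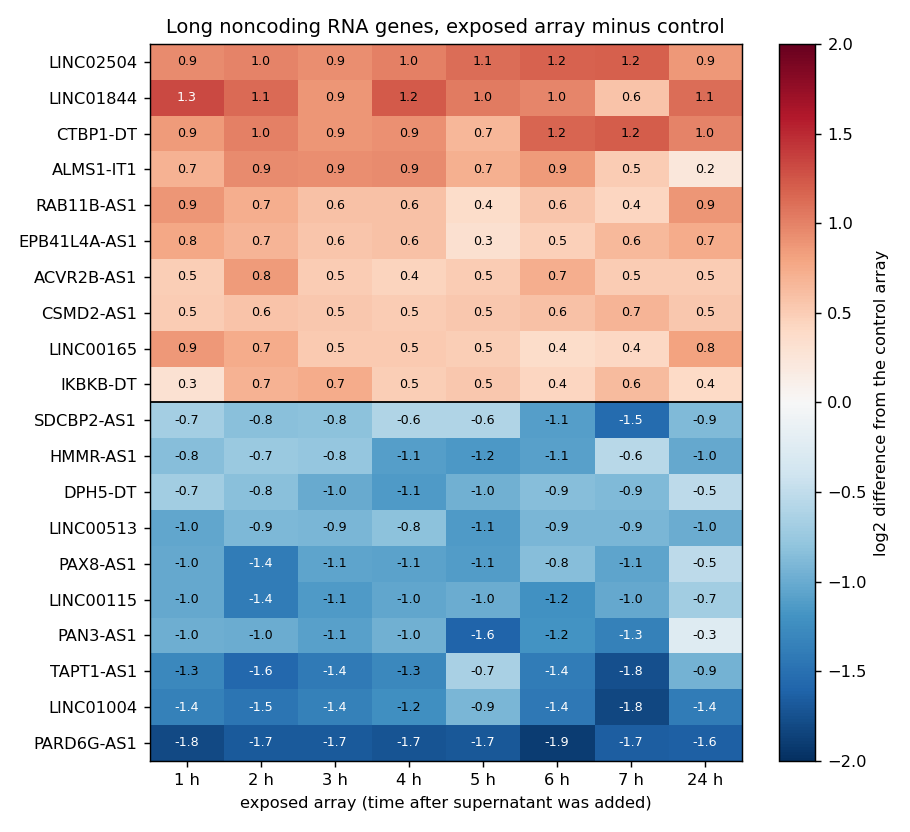
Heat map of the 20 named long noncoding RNA genes (rows) in the 8 exposed arrays (columns, hours after the supernatant was added). Each cell gives the log2 difference from the 1 control array on a colour scale from -2 to 2. PARD6G-AS1 is lower by 1.6 or more in every array, and PAN3-AS1, PAX8-AS1 and ALMS1-IT1 are nearest to the control at 24 h.

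**Figure D2:**
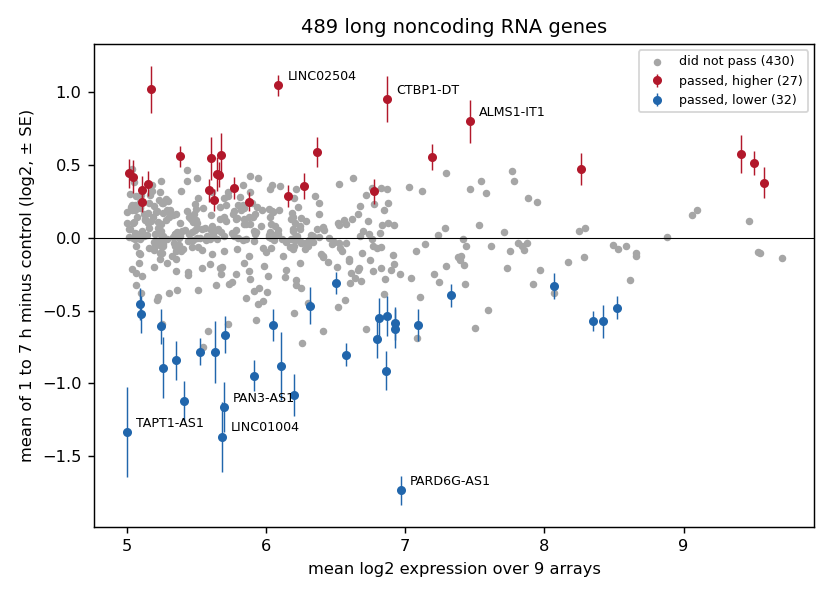
Each point is 1 of the 489 long noncoding RNA genes, with its mean log2 expression over 9 arrays on the x axis and its log2 difference, hourly mean less control, on the y axis. Bars are SE, red marks the 27 that passed as higher and blue the 32 that passed as lower. Differences beyond 1 belong to genes with a mean under 7.

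Of the 59 members that passed, 58 had all 8 exposed arrays on one side of the control. The exception was LINC00424, higher by 0.25 ± 0.06, whose lowest exposed value and control were both 5.68. The 59 were chosen by a contrast of the 7 hourly arrays with the control. That choice largely fixes the count of 58, which is therefore no test. Over all members 107 (21.9%) had every exposed array above the control and 86 (17.6%) below it, where the shares of all genes were 21.0% and 24.1%. Without the 5 h array these counts were 131 and 107, against 26.3% and 26.0% of all genes.

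The call depended on the 5 h array. Without it 111 members passed, 51 as higher and 60 as lower, among them all 59 above, while 23.3% of all genes passed. Scaling moved the split: after another quantile normalization of the deposited values 45 members passed as higher and 28 as lower, where 9.51% and 7.29% of all genes did.

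By name class, 9 LINC genes rose and 4 fell (8.28% of 157), 11 -AS genes rose and 19 fell (12.0% of 249), 6 -DT genes rose and 9 fell (19.7% of 76), and of 7 -IT genes ALMS1-IT1 rose. For protein-coding genes the share was 14.0%, and for 208 other RefSeq long noncoding RNA genes 13.5%, with 15 that rose and 13 that fell. Among the LINC genes 107 of 157 had a difference above 0, with a median of 0.07. The -AS genes had 113 of 249 above 0 and a median of -0.01. Level and class were mixed, since all genes with a mean of 5 to 6 had a median of 0.05 and those of 6 to 8 a median of -0.04. Of the 26 members with a mean of at least 8, 4 rose and 4 fell (30.8%, where 15.9% of all genes at that level passed), and the other 18 did not pass. No test of one class against another was made.

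Where a coding gene and its antisense or divergent transcript share a region, both can be read from the same arrays. The gene left when the suffix was removed from a member's name was measured for 265 of the 332 members of the -AS, -IT and -DT classes. In 5 of these pairs both genes passed against the control, in 35 only the long noncoding RNA gene, in 32 only the partner and in 193 neither. Among the partners 37 (14.0%) passed, a share near that of all genes. Where the long noncoding RNA gene passed, the partner did in 5 of 40 pairs, a share no higher than that of all partners. A link between the 2 calls was not tested. The 2 differences had the same sign in 144 of 265 pairs, and in 20 of the 40 pairs whose long noncoding RNA gene passed.

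HMMR-AS1 and HMMR, which encodes a hyaluronan receptor that also acts at the mitotic spindle, both fell. HMMR-AS1 was at 6.07 in the control and 4.92 to 5.52 in the exposed arrays, and HMMR at 12.45 and 11.26 to 11.53, a difference of -1.06 ± 0.11 (adjusted p = 0.00135). Neither gene's exposed arrays reached the control. ZEB1-AS1 (-0.59 ± 0.12) fell with ZEB1 (-0.35 ± 0.09), a repressor of epithelial genes, and NCK1-DT (-0.55 ± 0.14) with NCK1 (-0.33 ± 0.07), an adaptor of receptor tyrosine kinases.

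In the other 2 pairs the directions were opposite. PARD6G rose by 0.59 ± 0.14 (adjusted p = 0.0260), from 6.82 in the control to 7.11 to 7.52 in the exposed arrays, where PARD6G-AS1 fell. ALMS1 fell by 0.40 ± 0.10 (adjusted p = 0.0304) where ALMS1-IT1 rose. The partners of the other named members did not pass: PAN3 differed by -0.20 ± 0.13, PAX8 by 0.12 ± 0.08, TAPT1 by -0.21 ± 0.08, DPH5 by 0.05 ± 0.10, CTBP1 by -0.24 ± 0.08, RAB11B by 0.08 ± 0.12, EPB41L4A by 0.02 ± 0.27, ACVR2B by 0.06 ± 0.14 and IKBKB by -0.20 ± 0.13. Conversely ID2, whose protein blocks DNA binding of basic helix-loop-helix factors, rose by 1.43 while ID2-AS1 differed by 0.36 (adjusted p = 0.161), and CCDC18 fell by 1.46 while CCDC18-AS1 differed by -0.50 (adjusted p = 0.318). Which strand the probes of a pair read was not checked here.

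**Figure D3:**
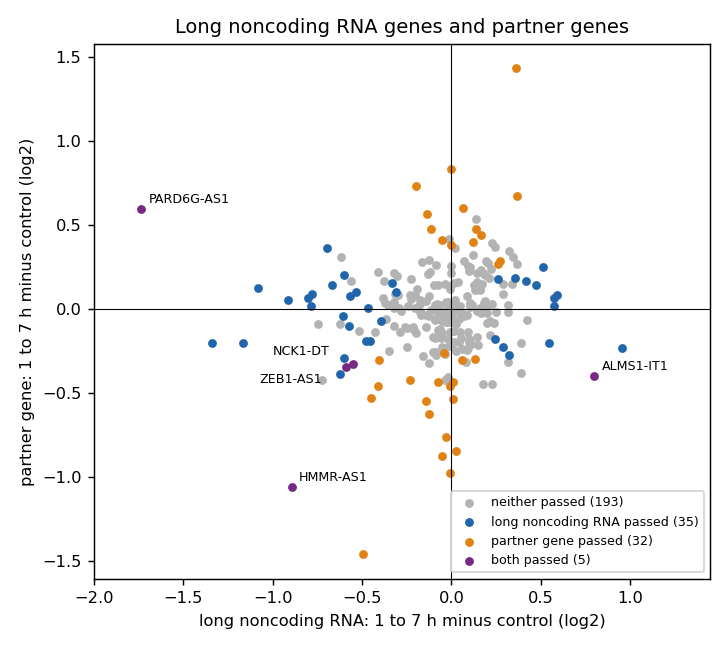
Each point is 1 of 265 pairs, with the difference between 1 to 7 h and the control for the long noncoding RNA gene on the x axis and for the gene it is named after on the y axis (both log2). Colours give which of the 2 passed an adjusted p of 0.05. The 5 pairs in which both passed are named, 3 of them in the lower left quadrant and 1 in each quadrant of opposite signs.

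Positions bear on these pairs. In the RefSeq promoter table (GRCh38.p14) 381 members had at least 1 start, with 447 windows of 300 bases in all. Of 53 -DT genes 52 lay head to head with their partner, 49 of them within 1000 bases by the nearest pair of starts, and the 53 lay at a median distance of 169 bases. Of 159 -AS genes 158 were on the opposite strand, 50 head to head, with a median distance of 970 bases between starts. The 3 -IT genes ran on the partner's strand. The windows of 4 genes that passed follow, because they show both arrangements, a pair that rose and a pair that fell. Each runs from 250 bases before the start to 50 after it, on the gene's own strand, and capitals mark GGGCGG (the letters of an Sp1-type GC box) or CCAAT on either strand. CTBP1-DT is at chr4:1249190-1249489 (plus strand), RAB11B-AS1 at chr19:8390642-8390941 (minus), DPH5-DT at chr1:101025596-101025895 (plus) and HMMR-AS1 at chr5:163494009-163494308 (minus).
CTBP1-DT: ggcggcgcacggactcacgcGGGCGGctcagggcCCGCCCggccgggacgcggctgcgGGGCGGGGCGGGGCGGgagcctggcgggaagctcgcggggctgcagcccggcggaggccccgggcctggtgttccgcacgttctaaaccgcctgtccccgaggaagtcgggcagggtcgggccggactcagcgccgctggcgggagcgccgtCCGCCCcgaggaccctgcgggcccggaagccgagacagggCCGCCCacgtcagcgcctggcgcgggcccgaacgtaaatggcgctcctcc
RAB11B-AS1: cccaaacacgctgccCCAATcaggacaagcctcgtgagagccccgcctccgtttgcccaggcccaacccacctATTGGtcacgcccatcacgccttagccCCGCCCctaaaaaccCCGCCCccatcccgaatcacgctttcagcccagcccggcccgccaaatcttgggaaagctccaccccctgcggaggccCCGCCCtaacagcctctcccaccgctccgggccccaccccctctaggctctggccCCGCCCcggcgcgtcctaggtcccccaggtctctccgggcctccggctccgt
DPH5-DT: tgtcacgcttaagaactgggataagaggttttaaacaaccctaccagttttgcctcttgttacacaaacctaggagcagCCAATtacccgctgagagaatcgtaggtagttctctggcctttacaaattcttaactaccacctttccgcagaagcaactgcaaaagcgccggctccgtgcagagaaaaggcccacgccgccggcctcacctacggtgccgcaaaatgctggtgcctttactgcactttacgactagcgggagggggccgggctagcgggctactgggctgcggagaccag
HMMR-AS1: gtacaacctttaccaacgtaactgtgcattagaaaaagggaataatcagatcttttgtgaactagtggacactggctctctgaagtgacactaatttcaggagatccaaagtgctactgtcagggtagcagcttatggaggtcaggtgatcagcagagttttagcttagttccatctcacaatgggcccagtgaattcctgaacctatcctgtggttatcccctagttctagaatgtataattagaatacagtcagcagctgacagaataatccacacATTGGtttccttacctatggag

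The starts of CTBP1-DT and CTBP1 lie 310 bases apart and those of DPH5-DT and DPH5 62 bases apart, both head to head. RAB11B-AS1 starts 331 bases from RAB11B and HMMR-AS1 33426 bases from HMMR, both on the opposite strand and not head to head. The CTBP1-DT window held 7 matches to GGGCGG, and that of RAB11B-AS1 4 to GGGCGG and 2 to CCAAT. DPH5-DT and HMMR-AS1 held 1 CCAAT each and no GGGCGG, in windows with 54.3% and 42.3% G and C, against 79.3% for CTBP1-DT and 69.7% for RAB11B-AS1. PAN3-AS1 also fell, and its window, not printed here, held 1 GGGCGG and had 70% G and C. Over the members' 447 windows GGGCGG was found in 56.2%, where 45.0% of all 35116 windows in the table held it. CCAAT was found in 35.1% (34.6% of all), TATAAA in 6.94% (11.5%), TGACGTCA in 2.46% (1.85%) and TGACTCA in 4.47% (4.95%). The median share of G and C was 63.7% in the members' windows and 58.7% in all. A match to these letters is a description of the window only.

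The second comparison asked whether the members changed from 1 to 7 h of exposure. In limma's test of the slope none of 489 members passed, and none of 12402 genes did (0%), while 70 members and 15.7% of all genes had an unadjusted p under 0.05. The slopes ran from -0.21 per h (ST7-AS1) to 0.11 per h (LINC00656). ZEB1-AS1, with the smallest p, was at 7.30 at 1 h, 6.94 at 2 h and 3 h, 6.89 at 4 h, 6.58 at 5 h, 6.74 at 6 h and 6.51 at 7 h. Its values were thus lower at 5 to 7 h than at 1 to 4 h, with a slope of -0.11 ± 0.02 per h (adjusted p = 0.102). RFX5-AS1, which starts 11 bases from the gene of a factor for MHC class II promoters, went from 5.85 at 1 h to 5.38 at 7 h (-0.08 ± 0.02 per h, adjusted p = 0.118). LINC00165 had the same rounded slope and adjusted p, from 7.53 to 7.08.

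Of the members with a positive slope, LINC00656 was at 5.10 at 1 h, between 5.57 and 5.64 from 2 h to 5 h and at 5.90 at 6 h and 7 h (0.11 ± 0.02 per h, adjusted p = 0.118). LINC01128 went from 6.95 to 7.31 (0.05 ± 0.01 per h, adjusted p = 0.145, with 0.02 per h over all its probe sets) and LINC02504 from 6.11 to 6.38 (0.05 ± 0.01 per h, adjusted p = 0.156). Without the 5 h array 2 members passed, both with falling values, where 0.589% of all genes passed. MRNIP-DT, which starts 186 bases from the gene of a DNA repair factor, went from 6.89 at 1 h to 5.97 at 7 h, and was lowest at 5 h (5.55). Its slope without that array was -0.14 ± 0.01 per h (adjusted p = 0.0240). BAIAP2-DT went from 7.37 to 6.81, with 6.33 at 5 h, and its slope without that array was -0.09 ± 0.02 per h (adjusted p = 0.0481).

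The third comparison set the 24 h array against the mean of 1 to 7 h. None of 489 members passed, where 1 of 12402 genes did (0.00806%), and 61 members had an unadjusted p under 0.05, against 15.7% of all genes. PAN3-AS1, described above, was higher at 24 h by 0.91 ± 0.17 (adjusted p = 0.122). PKD1L1-AS1 was at 8.22 at 24 h, between 7.20 and 7.76 in the hourly arrays and at 7.08 in the control (0.81 ± 0.14, adjusted p = 0.108). LINC01842 was at 5.33 at 24 h and 4.89 to 5.08 before (0.36 ± 0.08, adjusted p = 0.129). In these 3 genes the 24 h value lay above every hourly array.

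Lower at 24 h were LINC02693, at 5.53 against 5.91 to 6.09 in the hourly arrays (-0.49 ± 0.08, adjusted p = 0.108), TDH-AS1 (-0.49 ± 0.10) and LINC00824 (-0.38 ± 0.09). These values rest on the brightest probe set of each gene: averaged over all its probe sets LINC02693 differed by -0.01 (adjusted p = 0.976), TDH-AS1 by -0.27 and LINC00824 by -0.18. The 24 h value lay above all 7 hourly arrays in 87 members (17.8%) and below them in 62 (12.7%), where it did so in 21.9% and 14.4% of all genes. Without the 5 h array 2 members passed, PAN3-AS1 (0.85 ± 0.09) and BAIAP2-DT (0.78 ± 0.08), each at an adjusted p of 0.0383, where 0.0887% of all genes passed. BAIAP2-DT was at 7.83 at 24 h, above all other arrays, and at 7.37 both at 1 h and in the control.

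**Figure D4:**
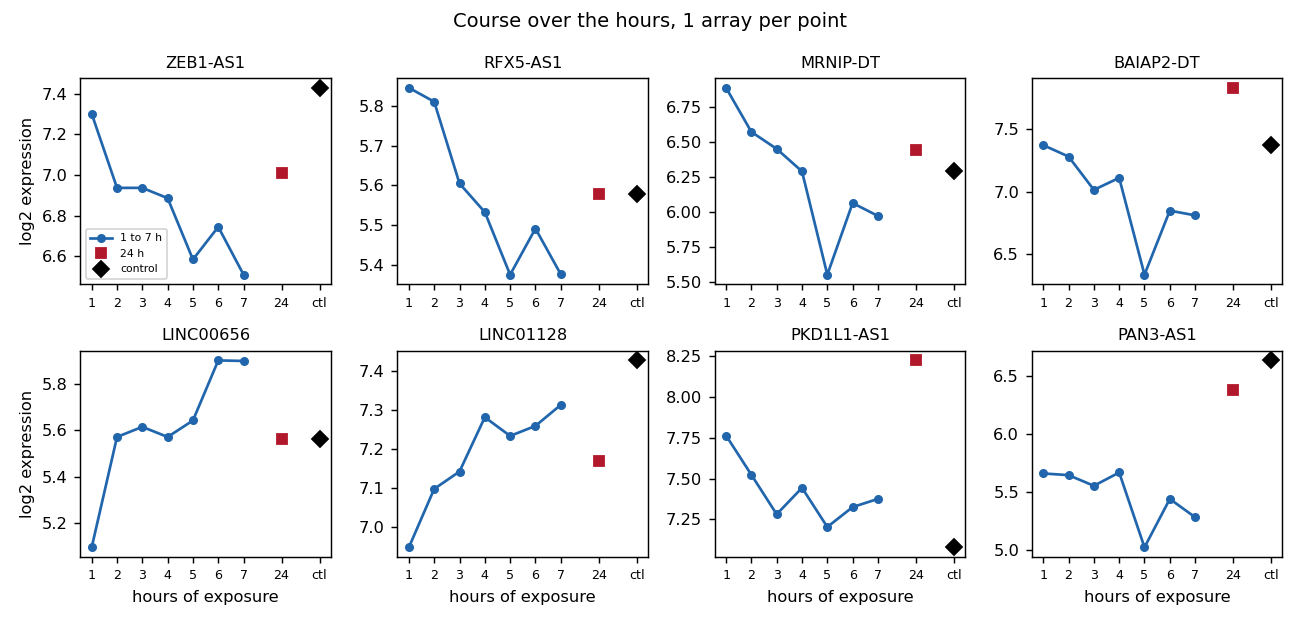
Log2 expression of 8 long noncoding RNA genes in each array, with hours of exposure and the control (ctl) on the x axis and 1 array per point. Blue circles are 1 to 7 h, the red square is 24 h and the black diamond the control. ZEB1-AS1, RFX5-AS1, MRNIP-DT and BAIAP2-DT start high at 1 h, LINC00656 and LINC01128 start low, and PKD1L1-AS1 and PAN3-AS1 are above their hourly values at 24 h.

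Single exposed arrays were also set against the control, with 1 array on each side and no test. At 24 h, the time the control carries, 3 members were at least 2-fold above it and 6 below it, where 0.468% and 0.693% of all genes were. LINC02683 (7.97 against 6.82), PKD1L1-AS1 (8.22 against 7.08) and LINC01844 (5.38 against 4.26) were the 3 above. They were followed by CTBP1-DT (0.98), RAB11B-AS1 (0.88), LINC02504 (0.87), LINC01010 (0.87) and LINC00165 (0.80), given as log2 differences. The 6 below were PARD6G-AS1 (-1.64), LINC01004 (-1.40), NPTN-IT1 (-1.20), HMMR-AS1 (-1.03), EP300-AS1 (-1.02) and PSMD6-AS2 (-1.01), with LINC00513 (-0.99) and TAPT1-AS1 (-0.95) next.

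At 1 h, LINC01844 was above the control by 2-fold or more (1.33), where 0.411% of all genes were, and 6 members were below it, where 0.718% were. Those were PARD6G-AS1 (-1.81), LINC01004 (-1.36), TAPT1-AS1 (-1.29), LINC00513 (-1.03), LINC00115 (-1.03) and PAX8-AS1 (-1.02), with NPTN-IT1 (-0.99) and PAN3-AS1 (-0.97) next. Next after LINC01844 on the other side were LINC02504 (0.94), RAB11B-AS1 (0.89), LINC02683 (0.88), LINC00165 (0.86), CTBP1-DT (0.85), LINC00938 (0.82) and EPB41L4A-AS1 (0.78). PARD6G-AS1, LINC01004, LINC01844 and LINC02504 thus differed from the control in the 1 h array too. The contrast that named them includes the 1 h array, and every exposed array is set against the same control array. Their values at 1 h are therefore no separate test of an early change.

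In the hours between, few members were 2-fold apart from the control in any array. Above it by that much were 3 members at 2 h (0.411% of all genes), 0 at 3 h (0.274%), 2 at 4 h (0.331%), 3 at 5 h (0.314%), 2 at 6 h (0.323%) and 2 at 7 h (0.298%). Below it were 5 at 2 h (0.726% of all genes), 7 at 3 h (0.484%), 7 at 4 h (0.468%), 8 at 5 h (0.782%), 9 at 6 h (0.718%) and 9 at 7 h (0.879%). Each exposed array thus had more members 2-fold below the control than above it, as it had of all genes. As a share of the 489 members, those 2-fold below exceeded the share of all genes in each exposed array. At 3 h, for example, there were 7 of 489 members and 60 of 12402 genes. The share 2-fold above also exceeded that of all genes, except at 1 h and 3 h. The difference between these shares was not tested.

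The Alu control probe set of the array reads a repeat that occurs in introns, in the tails of many messenger RNAs and in long noncoding RNAs. It was at 14.37 in the control and at 13.95, 13.98, 14.08, 14.05, 14.29, 13.91 and 14.05 from 1 to 7 h, with 14.05 at 24 h. The control and the 5 h array were thus its 2 highest values, and the other 7 arrays lay within 13.91 to 14.08. Its difference of -0.33 ± 0.13 did not pass in a fit of 26835 probe sets (limma adjusted p = 0.152), where 9.52% passed. Without the 5 h array it was -0.37 ± 0.08 and passed (adjusted p = 0.0211).

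The mean level of the members that fell was 7.04 in the control, 6.21 at 5 h and 6.24 to 6.41 in the other exposed arrays. That of the members that rose was 5.91 in the control and 6.36 to 6.47 in the exposed arrays. Both groups were chosen by a contrast in which the 5 h array enters the mean and the spread, so neither the distance from the control nor the place of the 5 h array is a test. The control and the 5 h array were the 2 highest of 9 in 36 members (7.36%, against 5.04% of all genes) and the 2 lowest in 45 (9.20%, against 12.7%). Of the 32 members that fell, LINC01004, SDCBP2-AS1 and TAPT1-AS1 had these as the 2 highest, and of the 27 that rose 7 had them as the 2 lowest.

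Some members outside the called genes had the control and the 5 h array as their 2 highest, as the Alu probe set did. PSMD6-AS2 was at 6.48 in the control and 6.85 at 5 h, with the other 7 arrays between 5.48 and 5.93. NPTN-IT1 was at 6.26 and 6.08, with the others between 4.87 and 5.68. Their differences of -0.56 ± 0.39 and -0.75 ± 0.34 did not pass (adjusted p = 0.378 and 0.175). Of the 7 -IT genes 3 had these arrays as the 2 highest, NPTN-IT1, RUNX1-IT1 and SPRY4-IT1.

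Measures of RNA quality moved with the same arrays in part. The 3' minus 5' difference of the ACTB control probe sets was 2.24 at 5 h, 1.86 in the control and 1.59 to 1.97 in the others. The mitochondrial gene ND6 was at 10.57 at 5 h and 10.40 in the control, against 8.56 to 9.37 in the others. Among the hourly arrays the 5 h array was the lowest in 163 members (33.3%, against 38.7% of all genes) and the highest in 109 (22.3%, against 12.2%). The part of RNA quality in these values was not tested.

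**Figure D5:**
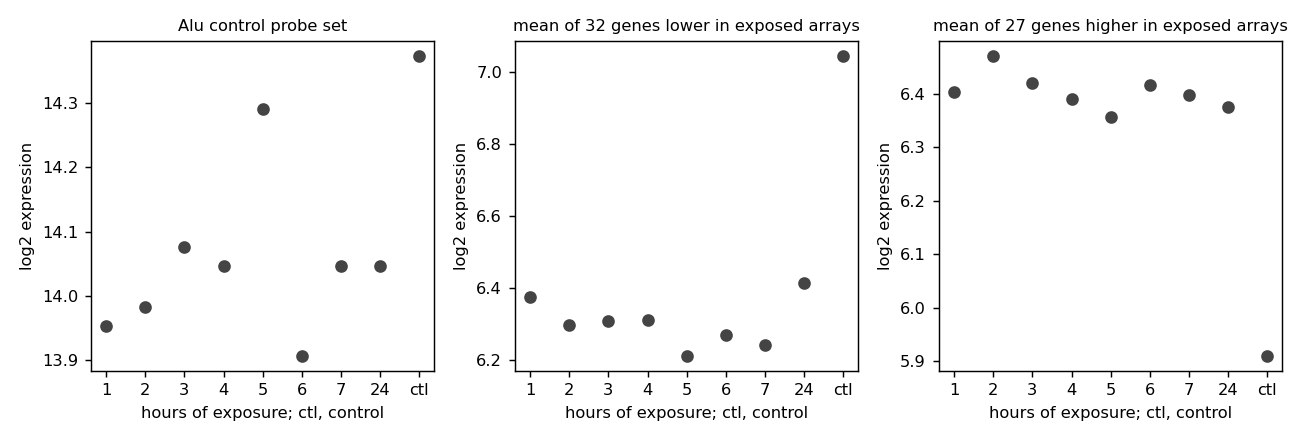
Log2 expression of the Alu control probe set (left) and mean log2 expression of the 32 long noncoding RNA genes that fell (middle) and of the 27 that rose (right), with 1 point per array and hours of exposure or control (ctl) on the x axis. The Alu probe set is at 14.29 at 5 h and 14.37 in the control, and the other 2 panels show genes chosen by their difference between the hourly arrays and the control.

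Other noncoding RNA genes that the naming rule does not take were read from the same fit. Of 20 measured of 37 listed, UCA1, a carcinoma-associated transcript, was higher by 0.89 ± 0.12 (adjusted p = 0.00353), at 10.11 in the control and 10.86 to 11.28 in the exposed arrays. MIR210HG, host of a microRNA that responds to hypoxia, fell by 0.56 ± 0.07 (adjusted p = 0.00201), and 18 did not pass, with a list median of -0.07. The shares of all genes were 5.85% higher and 8.02% lower. FTX, a transcript of the X-inactivation centre, was at 8.83 in the control and 9.60 at 5 h, and its difference of -1.11 ± 0.85 did not pass (adjusted p = 0.427). MALAT1, which is retained in nuclear speckles, differed by 0.03 ± 0.45.

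Among 25 measured genes of nuclear RNA turnover, EXOSC7, a core subunit of the exosome, rose by 0.44 ± 0.08 (adjusted p = 0.00848). Of this list 4 fell: ZFC3H1 (-0.50 ± 0.10), which links the exosome to polyadenylated nuclear RNA, TENT4B (-0.37 ± 0.08), a noncanonical poly(A) polymerase, ZC3H3 (-0.37 ± 0.09) and UPF1 (-0.37 ± 0.10), the helicase of nonsense-mediated decay. The other 20 did not pass, and the list's median was -0.17, against -0.01 over all genes.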

How the data were processed

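The authors' deposited log2 values are RMA output, per the submitters' processing notes; RMA corrects background, normalizes arrays and summarises probe sets, and neither its version nor its settings are given in the sources used here. In the value table were 54675 probe sets, and a filtered table of 6370 held the same log2 values to within 5.00e-09. Gene names came from the platform annotation (41097 probe sets with 1 symbol, 1801 with several, left out). Of a gene's probe sets the brightest over the 9 arrays was taken, which gave 19775 genes, and a minimum mean of 5 left 12402.

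All were fitted together with limma 3.58.1 (R 4.3.3). Its moderated two-sided tests were adjusted by Benjamini and Hochberg's method over the 12402 genes, at a threshold of 0.05. Terms of the model were the hour, centred, and indicators for the control and for the 24 h array, with 5 residual and 3.72 prior degrees of freedom. The test was checked on simulated data in which each gene had the same spread in all 9 arrays. That check does not cover the wider scatter of the 5 h array or a control array with another spread. P-values reflect scatter between single arrays, some of which can be technical. Precision is limited by the number of arrays, since array values have no read depth.

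The members, lists and tests were chosen with earlier results of these data known. Named were the 10 members with the largest difference in each direction among those that passed, or the 3 with the smallest p where none passed; the 8 highest and 8 lowest at 24 h and 1 h; their partners; up to 4 genes of a list; and 3 genes on each side of the minimum. Named outside this rule, after their values were seen, were MRNIP-DT, BAIAP2-DT, ST7-AS1, NCK1-DT, ID2-AS1, CCDC18-AS1, NINJ2-AS1, TBX2-AS1, ERICH1-AS1, CRIM1-DT, LINC00424, RUNX1-IT1, SPRY4-IT1, FTX, MALAT1, UPF1, ND6 and the cell type markers. Alternatives were other minimum means, other scalings, the mean over probe sets, array weights, robust estimation with an intensity trend, no time term, the authors' filtered table, a 1.5-fold threshold and leaving out each hourly array; leaving out the 5 h array from the count of members on one side of the control was added after the data were seen. Promoter sequences and gene types came from RefSeq tables (GRCh38.p14). Python 3.11.15 with pandas 2.3.3, numpy 2.4.6 and matplotlib 3.10.9 prepared tables and figures.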

Additional observations from a re-analysis of the deposited data

How the results depend on the processing

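Under several alternatives with the same 489 members, the count of 59 that passed against the control lay between 49 and 79. These were array weights, robust estimation with an intensity trend, the mean over probe sets, a median shift, another quantile normalization and no time term. Of all genes 1292 to 2336 passed under these settings. With a minimum mean of 4, where 928 members were tested, 77 members passed, 49 of them among the 59, as did 1583 of 15468 genes. With a minimum mean of 6, where 220 members were tested, 33 members passed, as did 1690 of 9720 genes. Leaving out 1 hourly array gave 40 to 111 members, where 1074 to 2891 of all 12402 genes passed. Both counts were highest without 5 h. The slope and the 24 h contrast had 0 members under every alternative that keeps all hourly arrays, and 0 to 2 when 1 was left out, 2 in both without 5 h. Members 2-fold apart from the control numbered 9 at 24 h and 37 at 1.5-fold. At 1 h they numbered 7, with 44 at 1.5-fold and 4 after another quantile normalization. The share of all genes at 1.5-fold is not given here, so those counts cannot be read against a background. The median over all genes was -0.01 after the median shift and 0.04 after quantile normalization. The Alu difference of -0.33 ran from -0.37 (without 5 h, the 1 alternative in which it passed) to -0.30. Members with all exposed arrays on one side of the control numbered 193, and 238 without 5 h.

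For the 20 genes named in the control contrast, 274 combinations of gene and alternative kept direction and call, 24 kept the direction and did not pass, and 1 reversed: CTBP1-DT, -0.0702 from the probe set in the authors' filtered table. The cause of the lost calls was not tested. No paired analysis was possible because each group holds 1 array. The members' mean level was 6.12 in the control, against 7.88 for all genes, and their median SE was 0.12, against 0.10.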

Other observations

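Several members had more than 1 bright probe set. Of 76 such members 52 had probe sets with differences of the same sign between 1 to 7 h and the control, and among the 8 of them that passed 7 did. Sharing a sign did not mean sharing a size. PARD6G-AS1 ran from -1.73 to -0.11 and EPB41L4A-AS1 from 0.02 to 0.58, while CRIM1-DT ran from 0.52 to 0.69 and DPH5-DT from -0.91 to -0.63. The probe set that gave the call is itself among those counted, and the share over all genes is not given here. The median distance between the lowest and the highest probe set of a member was 0.23 on the log2 scale.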
